A study of Danio rerio with 4 samples.

Results

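The genes described here were 7 genes of coagulation and fibrinolysis in the adult zebrafish heart, found by their symbols among the 31466 features of the gene table. They were f8 (ENSDARG00000101385), vwf (ENSDARG00000077231), thbd (ENSDARG00000092470), plat (ENSDARG00000062707), f3a (ENSDARG00000099124), f3b (ENSDARG00000005673) and fgl2a (ENSDARG00000019861). The cells came from AB-strain hearts taken 6 h after cryoinjury of the ventricle or 6 h after a sham operation, in which the pericardium was opened without touching the heart with the cold probe. All fish of both groups had been injected with 4-thiouridine (4sU), a nucleoside that labels new RNA, before surgery, and all cells were fixed in methanol and treated with iodoacetamide. Each group had 2 libraries, each made from the pooled cells of several hearts, and the values below count labeled and unlabeled RNA together. The study's methods describe the libraries of a group as biologically independent, so that p-values between the groups measure the spread between 2 such pools. Those between cell types measure how far a difference between types varies over the 4 libraries.

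Blood clotting starts when tissue factor, a membrane protein kept away from the blood by the intact vessel wall, meets plasma factor VII. Zebrafish carry a pair of tissue factor genes, f3a and f3b. The clot is then propagated by cofactors such as factor VIII, which circulates bound to von Willebrand factor, and von Willebrand factor also tethers platelets, or in fish the nucleated thrombocytes, to the damaged wall. Endothelial thrombomodulin turns thrombin into an activator of the anticoagulant protein C, and tissue plasminogen activator starts the breakdown of fibrin. In mammals, fibrinogen-like protein 2 is made by macrophages, lymphocytes and endothelium, and its membrane form cleaves prothrombin.

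Levels are given as counts of unique molecular identifiers (UMIs) of a gene per 1000000 non-mitochondrial UMIs (CPM), summed over the cells of 1 type in 1 library. The libraries held 86891164 to 136777379 UMIs. After filters on depth and mitochondrial share, 11517 and 11950 cells remained in the cryoinjured libraries, against 15685 and 15923 in the sham libraries, with median depths of 1850 to 2838 UMIs per cell. The filters kept 72.1% and 52.0% of the barcodes in the cryoinjured libraries, against 79.9% and 81.5% in the sham libraries. Before filtering, the median mitochondrial share was 27.8% in cryoinjured library 1 and 46.3% in cryoinjured library 2, against 33.4% and 29.7% in the sham libraries. Cells were gated, that is, assigned to types by lists of marker genes that include none of the 7 genes, and 24269 of 55075 cells received a type. The numbers of gated cells in cryoinjured library 1, cryoinjured library 2, sham library 1 and sham library 2 were 365, 499, 629 and 648 for endocardium, 24, 22, 56 and 53 for vessel endothelium, and 7, 11, 9 and 24 for thrombocytes. In all 3 gates every detected marker of the type was at least 2-fold above the gated cells of other types. Gating by these same markers favors that result, so it is no independent check. None of the vessel endothelial markers was among the 10 leading genes of its gate. Cryoinjured library 1 and sham library 1 shared 293 cell barcodes, whereas the other pairs of libraries shared 84 to 128. No call of the 7 genes changed when all kept cells with a shared barcode were left out. Tests between groups were run in the 9 types with at least 30 cells in every library. Erythrocytes, which are not known as a source of any of the 7 products, served as the level of free RNA. This reference was not adjusted for the depth per cell, which differed between types.

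Among these 9 types f8 and vwf had their highest mean levels in endocardium, f3b in endocardium and atrial cardiomyocytes, f3a in smooth muscle, plat in epicardium and fibroblasts, and fgl2a in macrophages. From few cells, fgl2a was also high in thrombocytes and f3b in lymphatic endothelium, where 3 UMIs of plat gave up to 41.6 CPM. The gene thbd was near its limit of detection everywhere. Over all kept cells 20659 UMIs of f3b, 8463 of f8, 6600 of vwf, 3144 of fgl2a, 2079 of f3a, 238 of plat and 123 of thbd were counted. A gene was tested in a type only where its count passed the filter of the test. This was so in 9 of 9 types for f8, vwf, f3b and fgl2a, in 7 for f3a, in 1 for plat and in 0 for thbd.

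**Figure D1:**
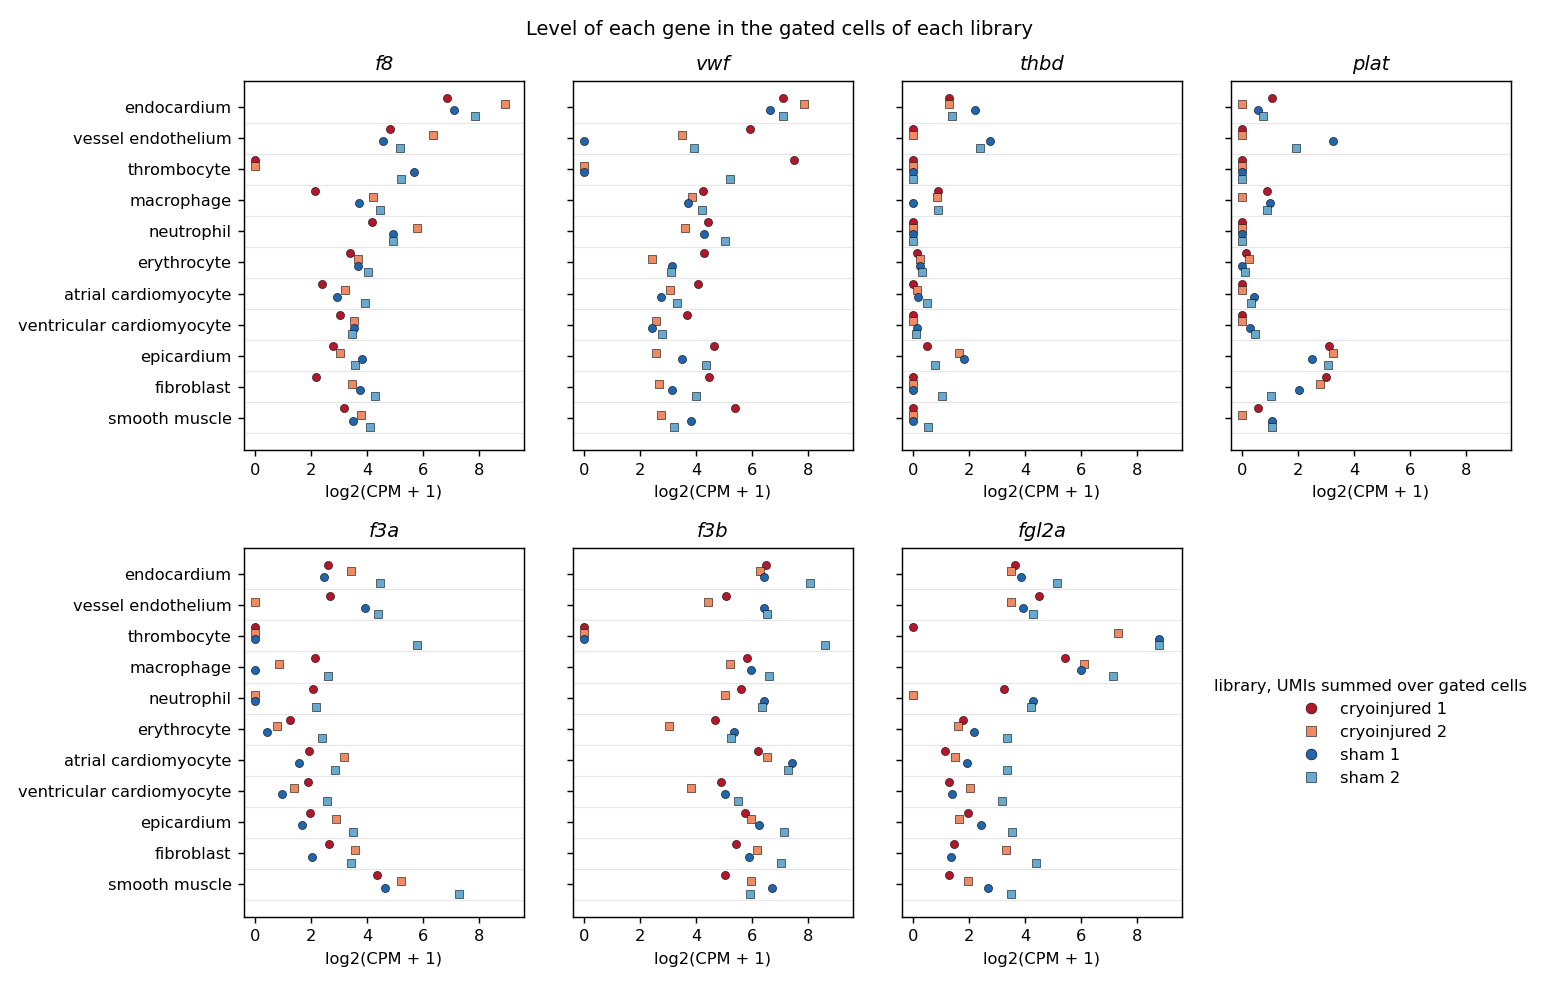
Level of each of the 7 genes, as log2(CPM + 1), in 11 gated types. Each point is the UMI sum over the gated cells of 1 library, with the cryoinjured libraries drawn above the sham libraries in every row. Among the 9 types tested between groups, the endocardial points for f8 and vwf lie above all others, whereas for f3a the lowest smooth muscle point lies within the endocardial range. The thrombocyte row rests on 7 to 24 cells per library.

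The cofactor gene f8 was highest in endocardium among the 9 types. Its level in endocardium was 114 and 491 CPM in the cryoinjured libraries, against 136 and 228 CPM in the sham libraries, from 316 and 1380 UMIs against 569 and 1392 UMIs. Cryoinjured library 2 was the highest and cryoinjured library 1 the lowest, so that the groups overlapped. In erythrocytes the level was 9.49 and 11.9 CPM in the cryoinjured libraries and 11.9 and 15.2 CPM in the sham libraries. Endocardium was therefore 11.4 to 41.4 times as high as erythrocytes of the same library. All other tested types except neutrophils lay at or near the erythrocyte level, between 3.43 and 20.7 CPM.

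Neutrophils held f8 at 17.1 and 54.4 CPM in the cryoinjured libraries, against 29.1 and 29.4 CPM in the sham libraries, which is 1.80 to 4.59 times the erythrocyte level. These values rest on 81 UMIs in all. The median depth was 2329 UMIs in neutrophils against 6278.5 UMIs in erythrocytes, and how far this raises the neutrophil ratio was not tested. The share of cells with a UMI was compared after each cell had been thinned to 1000 UMIs, since the median depth was 3933 UMIs in endocardium and 6278.5 UMIs in erythrocytes. Cells with fewer UMIs were left out. In endocardium 12.5% and 39.4% of cryoinjured cells had a UMI of f8, against 16.5% and 24.8% of sham cells. In neutrophils the shares were 1.47% and 6.83% against 6.15% and 2.91%, and in erythrocytes they were 0.739% to 1.49%. In endocardium the order of the libraries was the same in the share of positive cells as in the summed level.

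The carrier gene vwf was highest in endocardium as well. Its endocardial level was 137 and 228 CPM in the cryoinjured libraries, against 98.6 and 136 CPM in the sham libraries. Both cryoinjured libraries were above both sham libraries, although cryoinjured library 1 and sham library 2 differed by under 2 CPM. Of all genes tested in endocardium, 2.29% had both cryoinjured values above both sham values. In sham library 2 a single endocardial cell held 80 of the 829 vwf UMIs. After thinning, 13.4% and 21.0% of cryoinjured endocardial cells had a UMI of vwf, against 10.9% and 12.3% of sham cells. In erythrocytes the share was 0.403% to 1.75%, and the level was 18.2 and 4.31 CPM in the cryoinjured libraries and 7.70 and 7.54 CPM in the sham libraries.

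Cryoinjured library 1 held the highest vwf level of the 4 libraries in 7 of 9 types, all but endocardium and neutrophils. In that library it reached 40.7 CPM in smooth muscle, where 1 cell held 38 of 87 UMIs, 24.1 CPM in epicardium and 15.7 CPM in atrial cardiomyocytes. In the other 3 libraries the same types ranged from 4.98 to 19.3 CPM. The ratio of f8 to vwf UMIs was lowest in cryoinjured library 1 in all 9 types. The order of the 4 libraries in endocardium recurred in macrophages, erythrocytes and smooth muscle but not in the other 5 types. The ratio was 0.832 and 2.15 in cryoinjured endocardium and 1.37 and 1.68 in sham endocardium, beside 0.521 and 2.75 in cryoinjured erythrocytes and 1.54 and 2.02 in sham erythrocytes. The part of free endocardial RNA in the low levels of other types was not tested.

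**Figure D2:**
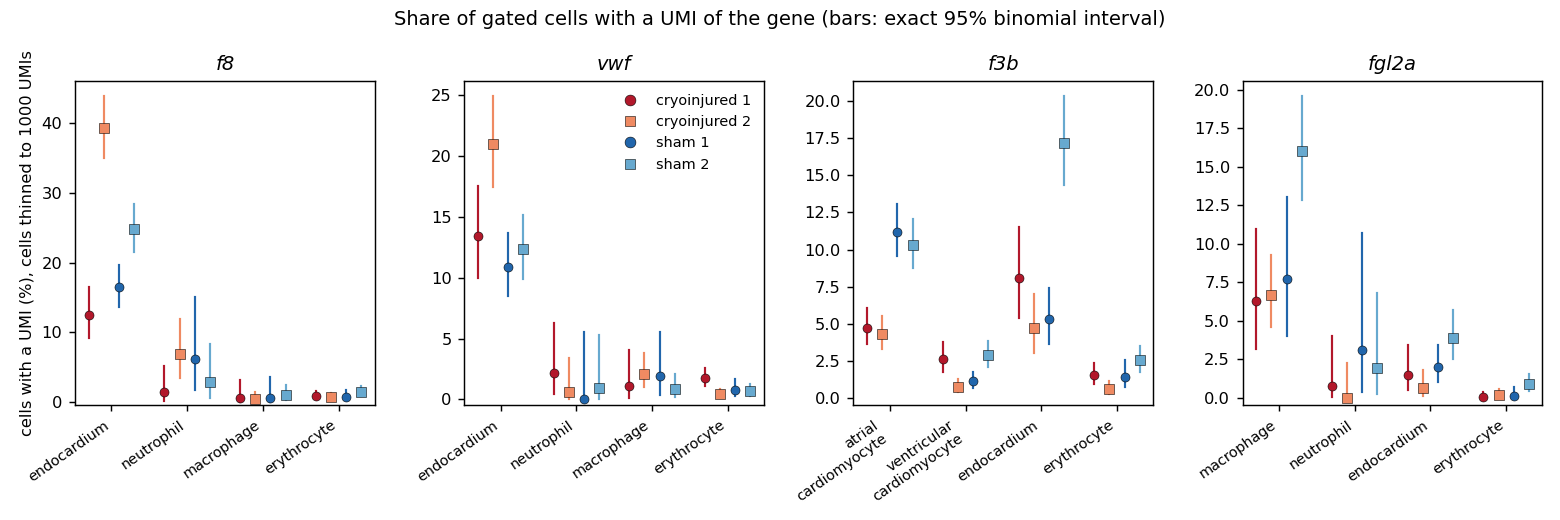
Share of gated cells with at least 1 UMI of f8, vwf, f3b or fgl2a after thinning to 1000 UMIs, in percent, for 4 types each, with exact binomial 95% intervals that cover counting error only. The erythrocyte share in each panel is the background. In the f3b panel the atrial shares are 4.73% and 4.30% in the cryoinjured libraries and 11.2% and 10.3% in the sham libraries.

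Vessel endothelium held far less of both genes than endocardium. Its f8 level was 27.0 and 81.6 CPM in the cryoinjured libraries, against 22.8 and 35.2 CPM in the sham libraries, from 5 and 8 UMIs against 8 and 25 UMIs. Its vwf level was 59.3 and 10.2 CPM against 0 and 14.1 CPM, and the 0 in sham library 1 allows up to 8.55 CPM. Lymphatic endothelium, with 2 to 27 cells per library, held f8 at 144 and 93.8 CPM in the cryoinjured libraries, against 83.1 and 32.9 CPM in the sham libraries, from 1 and 6 UMIs against 2 and 9 UMIs. These levels are 2.16 to 15.2 times those of erythrocytes, and the highest lies above the endocardial f8 level of cryoinjured library 1. The same gate gave 26 vwf UMIs in the 12 cells of cryoinjured library 2, a level of 406 CPM, and 20 UMIs in the 27 cells of sham library 2. These lymphatic levels overlap those of endocardium and rest on too few cells to compare.

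In thrombocytes, the clotting cells themselves, 0 and 0 UMIs of f8 were counted in the cryoinjured libraries, against 1 and 2 UMIs in the sham libraries. For vwf the counts were 1 and 0 UMIs against 0 and 2 UMIs. With 5514 to 56018 UMIs of all genes per library, a count of 0 allows up to 544 CPM in cryoinjured library 1 and 149 CPM in sham library 1. For f8, a thrombocyte level as high as that of endocardium was therefore not detectable at this depth in cryoinjured library 1. In cryoinjured library 2 the limit of 238 CPM lay below the endocardial f8 level. The 1 vwf UMI of cryoinjured library 1 is a level of 181 CPM. The 22 thrombocyte UMIs of f3b all came from sham library 2, 19 of them from a single cell. No pair with thrombocytes was fitted, since the smallest library held 7 of them.

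Differences between types were tested with edgeR on the sums of both types in all 4 libraries, with the library as a block and p-values adjusted by Benjamini-Hochberg over all genes tested. Of the 4374 genes tested, 10.2% differed between endocardium and vessel endothelium. Endocardium was higher by a log2 fold change of 2.95 ± 0.37 (SE, 4 libraries) for f8, with an edgeR adjusted p of 1.44e-07, and by 3.41 ± 0.52 for vwf, with an edgeR adjusted p of 0.000202. Both held in every alternative run. The tissue factor gene f3b was higher by 1.43 ± 0.35 (edgeR adjusted p = 0.00436), but without sham library 2 the adjusted p was 0.213. Its mean vessel endothelial level was 26.4 CPM in the cryoinjured and 88.5 CPM in the sham libraries, beside 83.6 and 175 CPM in endocardium. For f3a the difference was 0.13 ± 0.48, below 0 at -0.23 with library-size scaling, and for fgl2a it was 0.61 ± 0.43, and neither passed. This pair was fitted with a minimum of 20 cells per library, chosen after the cell numbers were known.

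Against macrophages, where 27.1% of all genes differed, endocardium was higher in f8 by 4.05 ± 0.28, in vwf by 3.21 ± 0.25 and in f3a by 2.12 ± 0.48 on the log2 scale (edgeR adjusted p of 5.08e-07, 1.21e-06 and 0.0045). It was lower in fgl2a, with a log2 fold change of -2.27 ± 0.21 (edgeR adjusted p = 3.88e-06). For f3b the difference of 0.89 ± 0.21 passed in the 4 libraries (edgeR adjusted p = 0.00512) but not without sham library 2, where it was 0.57 with an adjusted p of 0.156. Between macrophages and neutrophils, where 8.08% of all genes differed, f8 was lower in macrophages, with a log2 fold change of -1.20 ± 0.30 (edgeR adjusted p = 0.0307). That call was lost in 8 of the 11 alternatives.

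**Figure D3:**
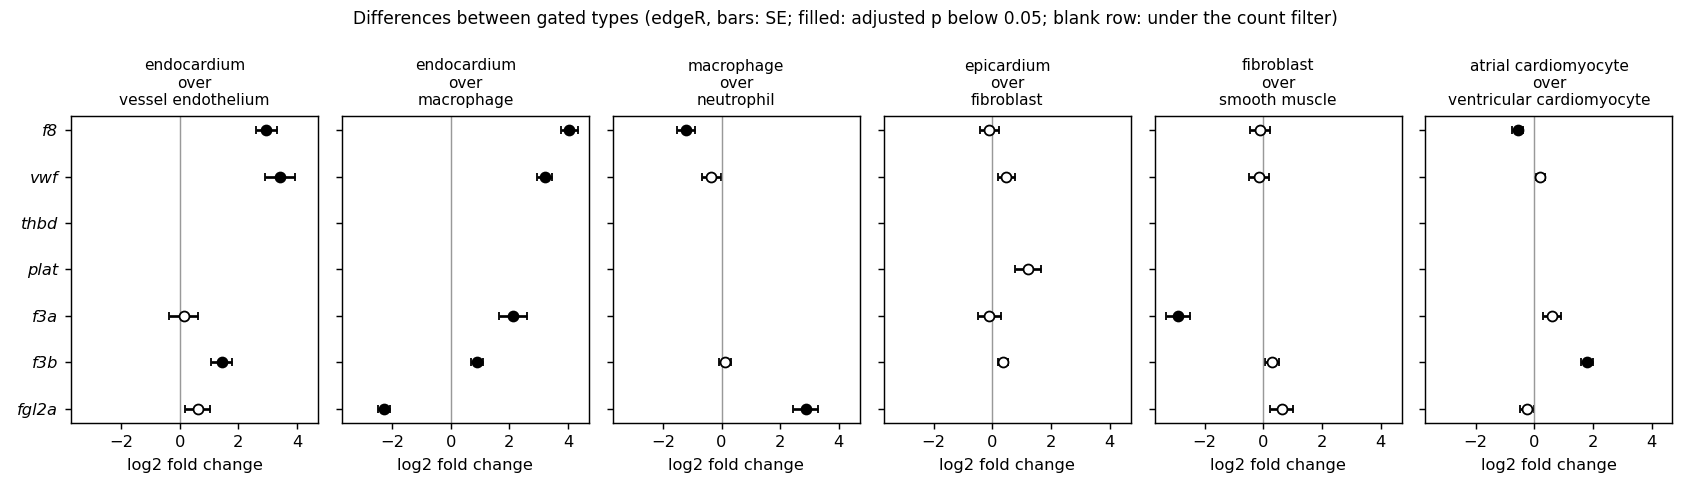
Log2 fold change of the 7 genes for 6 pairs of gated types, tested with edgeR over 4 libraries. Points to the right are higher in the first type of the pair, bars are standard errors, and filled points have an adjusted p below 0.05. The filled points include f8 and vwf at 2.95 and 3.41 for endocardium over vessel endothelium and f3a at -2.92 for fibroblast over smooth muscle.

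Between the groups, no member passed in endocardium, where 0% of 6585 genes tested were called with edgeR. An unadjusted p under 0.05 was reached by 172 genes, vwf among them (edgeR unadjusted p = 0.0406). DESeq2 called 3 genes and the fit with the replicate number as a block 28, and none of these called genes was a member. The log2 fold change of vwf, cryoinjured over sham, was 1.22 ± 0.50 (edgeR adjusted p = 0.999), between 0.51 and 1.74 in the alternatives. That of f8 was 1.41 ± 0.76 (edgeR adjusted p = 0.999), and it rested on cryoinjured library 2. Without cryoinjured library 1 the f8 value was 2.22, and without cryoinjured library 2 it was -0.39. Each of these fits held 1 cryoinjured library, so neither measures the spread between cryoinjured pools. For the share of cells with a UMI an exact permutation test of 2 libraries against 2 cannot give a p below 0.33.

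Whether the response of endocardium differed from that of vessel endothelium was tested as an interaction, in which 0.0173% of 5793 genes were called. The difference between the log2 fold changes of the types was 0.13 ± 0.89 for f8, -1.49 ± 0.96 for vwf and 1.09 ± 0.85 for f3b, with edgeR adjusted p of 0.998, 0.98 and 0.98. The median over all genes in this fit was 0.47, above the f8 value. Leaving out cryoinjured library 1 turned the vwf value to 1.48, and without sham library 2 it was -7.18. With 22 to 56 vessel endothelial cells per library these values are wide.

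Both tissue factor copies were detected, with their highest means in different types. In atrial cardiomyocytes f3b was at 73.6 and 91.7 CPM in the cryoinjured libraries, against 173 and 155 CPM in the sham libraries. Both cryoinjured libraries were below both sham libraries, as for 54.1% of all genes tested in atrial cells. In endocardium the f3b level was 89.9 and 77.2 CPM against 84.8 and 266 CPM, so that sham library 2 alone stood apart, with 43 endocardial cells of 10 or more UMIs against 2 to 5 in the other libraries. The endocardial level of sham library 1 was not above the mean of 88.5 CPM in sham vessel endothelium. Lymphatic endothelium had the highest mean f3b level of the endothelial gates, at 289 and 141 CPM against 83.1 and 117 CPM, but from 45 UMIs in all. Smooth muscle, the type with the highest f3a, held f3b at 31.8 and 61.3 CPM in the cryoinjured libraries and 104 and 59.1 CPM in the sham libraries. Ventricular cardiomyocytes held less, at 28.9 and 13.2 CPM in the cryoinjured libraries and 31.7 and 43.6 CPM in the sham libraries. The ratio to erythrocytes of the same library was 3.02 to 12.9 in atrial and 0.80 to 1.86 in ventricular cardiomyocytes.

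Atrial over ventricular cardiomyocytes was the largest f3b difference among the pairs fitted. The log2 fold change was 1.81 ± 0.20 (edgeR adjusted p = 4.84e-05), higher in atrial cells in all 4 libraries and between 1.59 and 2.10 in the alternatives. Of all genes, 28.5% differed between these types. The other genes differed less. For f8 the value was -0.56 ± 0.18 (edgeR adjusted p = 0.0241), a call lost in 6 of 11 alternatives, and both types were at or below the erythrocyte level of f8. For f3a it was 0.60 ± 0.30 (edgeR adjusted p = 0.165), which passed without sham library 2 at 1.01 and with library-size scaling at 0.90. For vwf it was 0.21 ± 0.16 (edgeR adjusted p = 0.356), which passed with library-size scaling alone, at 0.49.

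Between the groups, the atrial f3b level averaged 82.6 CPM in cryoinjured libraries and 164 CPM in sham libraries. The log2 fold change was -0.41 ± 0.36 (edgeR adjusted p = 0.68), in a comparison in which 0% of 9043 genes tested were called with edgeR, 831 reached an unadjusted p under 0.05, 10 were called by DESeq2 and 133 with the replicate block. The share of atrial cells with a UMI of f3b after thinning was 4.73% and 4.30% in the cryoinjured libraries, against 11.2% and 10.3% in the sham libraries, and the exact permutation p was 0.333, the smallest that 2 against 2 libraries can give. The share in erythrocytes, whose median depth of 6278.5 UMIs was near the 6943.5 UMIs of atrial cells, was 0.604% to 2.53%. Its mean was 1.07% in the cryoinjured and 1.99% in the sham libraries. The fold change from edgeR is smaller than the ratio of the CPM values because its scaling (TMM) sets the bulk of genes to no change. Scaled by library size alone, the median gene of each type had a log2 fold change between -0.80 and -0.14, and the atrial f3b value was -0.99 (edgeR adjusted p = 0.205). In atrial cells 54.1% of all tested genes had both cryoinjured CPM values below both sham values. Erythrocytes, the reference for free RNA, also had less f3b after cryoinjury, with a mean of 15.7 CPM against 38.2 CPM. Both cryoinjured values lay below both sham values there, as for 44.8% of all genes tested in erythrocytes. The log2 fold change of f3b in erythrocytes was -0.62 ± 0.34 (edgeR adjusted p = 0.851). The part of free RNA in the atrial difference was not tested.

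**Figure D4:**
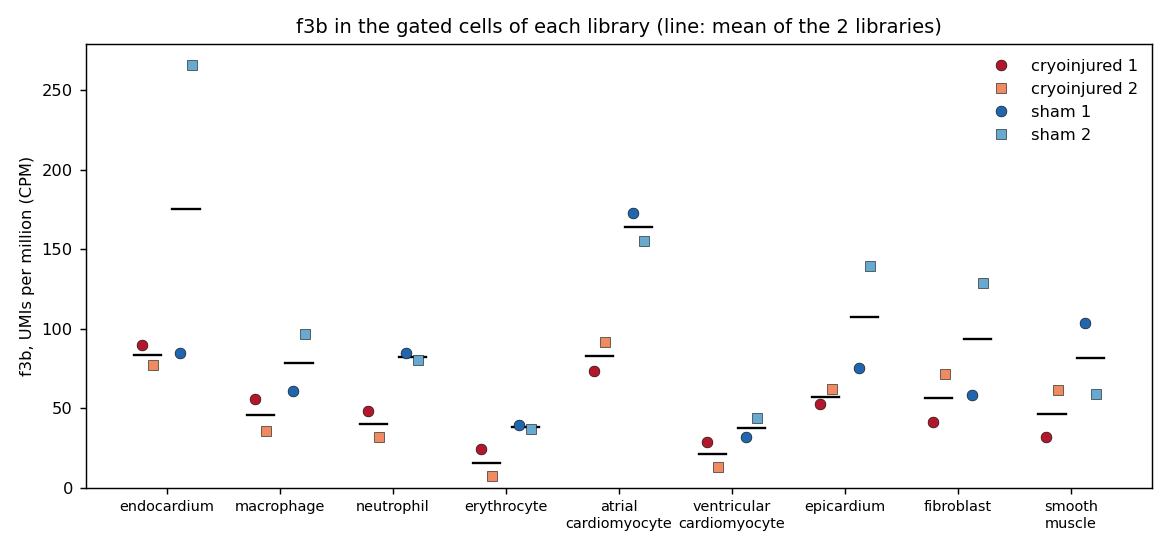
Level of f3b in CPM in 9 gated types, with the cryoinjured libraries left of the sham libraries and a line at the mean of the 2 libraries. In atrial cardiomyocytes the cryoinjured libraries lie at 73.6 and 91.7 CPM and the sham libraries at 173 and 155 CPM. In endocardium sham library 2 alone is high. The erythrocyte means are 15.7 CPM in the cryoinjured and 38.2 CPM in the sham libraries.

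Over the 9 types, both cryoinjured f3b values were below both sham values in 6 types, against 44.3% of all genes tested in these types and 3.38% with both cryoinjured values above. The 6 types were macrophages, neutrophils, erythrocytes, atrial and ventricular cardiomyocytes and epicardium. In epicardium the level was 52.4 and 61.9 CPM in the cryoinjured libraries, against 75.2 and 139 CPM in the sham libraries. In macrophages it was 55.8 and 35.6 CPM against 60.7 and 96.5 CPM. The fitted log2 fold change of f3b lay between -0.82 and -0.06 and was below 0 in 9 of 9 types, but in 6 of 9 without cryoinjured library 1 and in 6 of 9 without sham library 2. The 9 types come from the same 4 libraries and are not independent of each other.

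The other tissue factor copy, f3a, was highest in smooth muscle among the 9 types in every library. Its level there was 19.2 and 35.7 CPM in the cryoinjured libraries, against 24.0 and 154 CPM in the sham libraries. Sham library 2 stood far above the other 3, with 700 UMIs, and 16 of its smooth muscle cells held 10 or more UMIs each, against 0 such cells in the other libraries. The lowest smooth muscle level, in cryoinjured library 1, lay within the range of endocardium over the 4 libraries, 4.53 to 20.8 CPM. Fibroblasts held 5.18 and 10.9 CPM against 3.08 and 9.68 CPM, and erythrocytes 1.34 and 0.718 CPM against 0.335 and 4.27 CPM. Among fibroblast and smooth muscle sums, where 12.2% of all genes differed, f3a was lower in fibroblasts, with a log2 fold change of -2.92 ± 0.41 (edgeR adjusted p = 9.34e-05). The value was between -3.69 and -1.82 in the alternatives and passed in all of them.

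The share of smooth muscle cells with a UMI of f3a after thinning was 2.02% and 3.39% in the cryoinjured libraries, against 2.80% and 9.78% in the sham libraries, and up to 0.223% in erythrocytes. In smooth muscle 0% of 3877 genes were called between the groups with edgeR, against 10 genes by DESeq2 and 184 at an unadjusted p under 0.05. The f3a log2 fold change was -1.30 ± 0.90 (edgeR adjusted p = 0.803), and without sham library 2 it was 0.79. In that library f3a was also the highest of the 4 in 7 of 9 types.

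Thrombomodulin, the endothelial anticoagulant receptor, was barely detected. In endocardium 4 and 4 UMIs of thbd were counted in the cryoinjured libraries, against 15 and 10 UMIs in the sham libraries, or 1.44 and 1.42 CPM against 3.57 and 1.64 CPM. Epicardium had 0.416 and 2.14 CPM against 2.53 and 0.730 CPM, and erythrocytes 0.096 to 0.233 CPM. In vessel endothelium the counts were 0 and 0 UMIs in the cryoinjured libraries, against 2 and 3 UMIs in the sham libraries. The vessel endothelial mean in the sham libraries was 4.96 CPM, above the endocardial sham mean of 2.60 CPM, but from 5 UMIs in all. With all 4 libraries the gene passed the count filter in 0 of the 9 types and in no pair of types. The main edgeR run therefore tested it only between the groups in whole libraries. The log2 fold change there was -0.42 ± 0.63 (edgeR adjusted p = 0.889). Without cryoinjured library 1, cryoinjured library 2 or sham library 2 it passed the filter in 1 type each, at -0.09, -0.56 and -0.86. With no filter and with DESeq2, 8 types each gave a value, 3 of them above 0 and 5 below, and 0 were called.

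The plasminogen activator gene plat was highest in epicardium and fibroblasts among the 9 types. Its level in epicardium was 7.49 and 8.54 CPM in the cryoinjured libraries, against 4.70 and 7.30 CPM in the sham libraries, from 18 and 12 UMIs against 13 and 20 UMIs. Fibroblasts had 6.91 and 5.93 CPM against 3.08 and 1.02 CPM. In endocardium the counts were 3 and 0 UMIs against 2 and 4 UMIs, and in erythrocytes the level was 0 to 0.180 CPM. Vessel endothelium had 0 and 0 UMIs against 3 and 2 UMIs, or 0 to 8.55 CPM, which overlapped the epicardial range. Lymphatic endothelium gave 0 to 41.6 CPM from 3 UMIs in all. Both cryoinjured levels were above both sham levels in epicardium and in fibroblasts, as for 3.26% and 5.65% of all genes tested there. The same order occurred in erythrocytes, from 4 UMIs in all, as for 0.6% of genes tested there. The cryoinjured levels were below both sham levels in smooth muscle, from 1 and 0 UMIs against 2 and 5 UMIs. This was also so in atrial and ventricular cardiomyocytes, where the cryoinjured libraries held 0 UMIs and the sham libraries 2 to 6. Of all genes tested in smooth muscle, atrial and ventricular cells, 43.7%, 54.1% and 40.3% had both cryoinjured values below both sham values.

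Epicardium over fibroblast gave a plat log2 fold change of 1.23 ± 0.45 (edgeR adjusted p = 0.0965), where 6.31% of all genes differed. It passed only without the mitochondrial limit, at 1.42 with an adjusted p of 0.0465. Between the groups in epicardium, where edgeR called 0% of 4176 genes, DESeq2 called 6, the replicate block 28 and 335 reached an unadjusted p under 0.05, the plat value was 1.21 ± 0.52 (edgeR adjusted p = 0.609). It was between 0.40 and 1.47 in the alternatives and passed in none of them.

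The gene fgl2a marked macrophages among the well-sampled types. Its level there was 42.1 and 67.3 CPM in the cryoinjured libraries, against 62.7 and 139 CPM in the sham libraries, which is 15.0 to 32.6 times the erythrocyte level. Sham library 2 was the highest, and sham library 1 lay between both cryoinjured libraries. After thinning, 6.29% and 6.65% of cryoinjured macrophages had a UMI of fgl2a, against 7.69% and 16.0% of sham macrophages and 0.073% to 0.893% of erythrocytes. Neutrophils had 8.54 and 0 CPM against 18.5 and 17.7 CPM. Macrophages were higher than neutrophils by 2.88 ± 0.43 on the log2 scale (edgeR adjusted p = 0.00124), and this held in every alternative run.

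In the sham libraries thrombocytes gave the highest fgl2a level of any gate, from very few cells. The counts were 0 and 2 UMIs in the cryoinjured libraries, against 9 and 25 UMIs in the sham libraries, or 0 and 158 CPM against 446 and 446 CPM. The exact Poisson interval of the sham level was 204 to 847 CPM in library 1 and 289 to 659 CPM in library 2, which covers counting error only. Both lie above the macrophage levels of the same libraries, but the 0 in cryoinjured library 1 allows up to 544 CPM. The thrombocyte with the most fgl2a held 9 UMIs. Lymphatic endothelium, from 1 to 23 UMIs per library, gave 144 and 109 CPM in the cryoinjured libraries, against 125 and 84.2 CPM in the sham libraries. No test was made on these gates.

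In macrophages 0% of 4438 genes were called between the groups with edgeR, against 1 by DESeq2, 16 with the replicate block and 106 at an unadjusted p under 0.05. The fgl2a log2 fold change was -0.46 ± 0.54 (edgeR adjusted p = 1.00), and without sham library 2 it was 0.20. Over the 9 types the values ranged from -1.67 to -0.32, below 0 in each, and sham library 2 was the highest of the 4 libraries in 8 of 9. Without that library fgl2a was below 0 in 3 of the 7 types in which it could be fitted.

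Across all 9 types and 7 genes, 44 group tests were possible and edgeR called none of them, with 5 at an unadjusted p under 0.05. Over all genes, 2.39% to 11.4% of those tested in a type reached such a p. DESeq2 fitted 61 tests without the count filter, with 4 at an unadjusted p under 0.05, and called none of the 44 to which it gave an adjusted p. For these 4 the share over all genes is not given. In the types not given above, 0% of 2421 genes were called in neutrophils, 0% of 7167 in erythrocytes, 0% of 7670 in ventricular cardiomyocytes and 0% of 3220 in fibroblasts, with 79, 369, 346 and 368 genes at an unadjusted p under 0.05. DESeq2 called 0, 11, 17 and 15 genes in these types, and the replicate block 3, 36, 27 and 96. The 5 low values were vwf in endocardium, erythrocytes and atrial cardiomyocytes, plat in epicardium and fgl2a in atrial cardiomyocytes. The vwf value was above 0 in 8 of 9 types in 7 of 9 with library-size scaling and in 5 of 9 without cryoinjured library 1. That of f8 was above 0 in 5 of 9 types, in 2 of 9 with library-size scaling, in 9 of 9 without cryoinjured library 1 and in 0 of 9 without cryoinjured library 2.

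**Figure D5:**
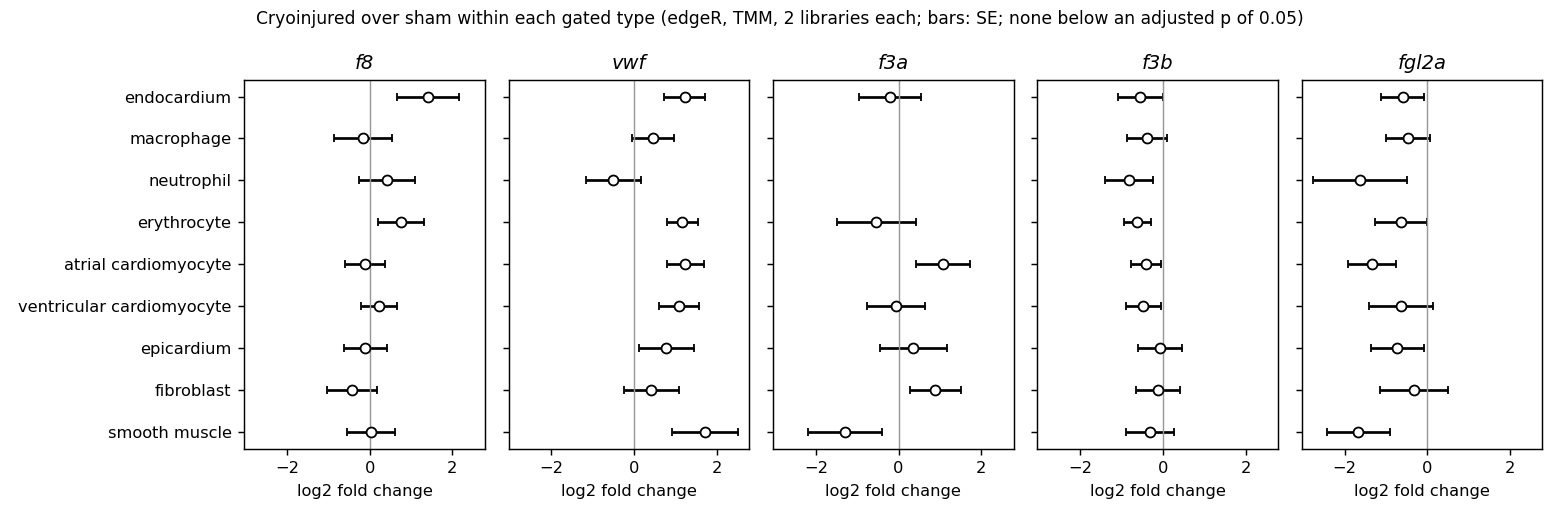
Log2 fold change, cryoinjured over sham, of 5 of the genes in 9 gated types, tested with edgeR on 2 libraries per group with TMM scaling. Bars are standard errors and missing points did not pass the count filter. The f3b values lie between -0.82 and -0.06 and the fgl2a values between -1.67 and -0.32, and no point has an adjusted p below 0.05.

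In whole libraries, where fewer cells of a type and less RNA per cell cannot be told apart, f3b stood at 44.5 and 41.3 CPM in the cryoinjured libraries, against 88.3 and 94.5 CPM in the sham libraries. The f8 level was 14.2 and 45.4 CPM against 23.3 and 34.4 CPM, and that of vwf 28.5 and 25.0 CPM against 15.4 and 23.9 CPM. For f3a the values were 3.43 and 4.61 CPM against 2.57 and 15.0 CPM, and for fgl2a 4.16 and 7.83 CPM against 5.59 and 21.5 CPM. Only f3b and vwf had groups that did not overlap among these 5 genes. The log2 fold change was -0.47 ± 0.30 for f3b and 1.08 ± 0.33 for vwf, both with an edgeR adjusted p of 0.828. The gene thbd had 0.145 and 0.385 CPM in the cryoinjured libraries against 0.607 and 0.492 CPM in the sham libraries, also without overlap. For plat the values were 0.726 and 1.05 CPM against 0.725 and 0.834 CPM, with overlap. Of 14258 genes, 0% were called with edgeR, 632 reached an unadjusted p under 0.05, 9 were called with the replicate block, and DESeq2 was not run. Both cryoinjured values lay below both sham values in 57.0% of these genes and above them in 2.29%. The share of endocardium among kept cells had a log2 fold change of -0.14 ± 0.36 and that of atrial cardiomyocytes 0.41 ± 0.34 (edgeR adjusted p of 0.922 and 0.732 over the types).

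The wider clotting pathway was described by a list of 68 genes, of which 57 were in the gene table. It was drawn up with earlier results of these data known, so its counts are a description. Between endocardium and vessel endothelium 10 of 18 tested list genes were higher in endocardium and 0 lower, beside 269 higher and 176 lower (10.2%) of 4374 genes, and the list median was a log2 value of 1.19 beside 0.08 over all genes. Besides f8, vwf and f3b these included tfpia, the inhibitor of the tissue factor pathway, at 2.51 ± 0.37, f10, the factor activated by tissue factor, at 2.24 ± 0.36, and s100a10a, a part of the plasminogen receptor, at 2.00 ± 0.59. The cofactor of protein C, pros1, was higher by 1.84 ± 0.37 (edgeR adjusted p of 0.0207 or lower for these 4). The endocardial s100a10a level of 6.40 to 17.5 CPM was below that of erythrocytes in each library, and vessel endothelium had 0 UMIs of it in 3 of 4 libraries. The list genes plat and thbd did not pass the count filter in this pair. Their means were 2.84 and 2.48 CPM in vessel endothelium, from 5 UMIs each, against 0.55 and 2.02 CPM in endocardium. How far the filter shaped the split of the list, with 22 to 56 vessel endothelial cells per library, was not tested.

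Against macrophages 14 of 25 tested list genes were higher in endocardium and 5 lower, beside 723 higher and 757 lower (27.1%) of 5461 genes. The largest differences beside the 7 genes were f13a1b, encoding the fibrin cross-linking factor XIII, at -4.20 ± 0.34, ptgis, the prostacyclin synthase, at -4.11 ± 0.42, mmrn2a, an endothelial multimerin, at 4.09 ± 0.47, f5, the cofactor of factor X, at -3.26 ± 0.38, and f2rl2, a thrombin receptor, at 3.17 ± 0.47. All had an edgeR adjusted p of 0.000167 or lower. Macrophages also exceeded neutrophils in f13a1b, by 3.90 ± 0.46 (edgeR adjusted p = 0.000245), beside fgl2a. These 2 were the only list genes of 13 tested that were higher in macrophages, beside 145 of 2835 genes.

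Epicardium and fibroblasts differed in 4 of 16 tested list genes, beside 6.31% of all genes. The gene fgl2b, a second fibrinogen-like gene, was lower in epicardium, with a log2 fold change of -5.03 ± 0.40, and so was serpine2, a thrombin inhibitor, at -1.73 ± 0.30 (edgeR adjusted p of 6.41e-15 and 7.44e-05). The plasminogen receptor genes anxa2a and s100a10b were higher by 0.63 ± 0.12 and 0.41 ± 0.12. Fibroblasts held fgl2b at 15.5 and 54.4 CPM in the cryoinjured libraries and 10.8 and 64.7 CPM in the sham libraries, so that the related genes fgl2a and fgl2b were highest in different types. In smooth muscle kng1, the kininogen gene, was at 92.2 and 62.8 CPM against 18.0 and 112 CPM, and the log2 fold change of fibroblasts over smooth muscle was -4.63 ± 0.42 (edgeR adjusted p = 3.09e-07). In that pair 6 of 17 tested list genes were higher in fibroblasts and 2 lower, beside 273 higher and 166 lower (12.2%) of 3609 genes, with fgl2b at 4.94 ± 0.50, s100a10a at 3.01 ± 0.26, f10 at 2.10 ± 0.25 and serpine2 at 1.22 ± 0.32 among the higher ones.

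Between atrial and ventricular cardiomyocytes 5 of 19 tested list genes were higher in atrial cells and 4 lower, beside 1126 higher and 1142 lower (28.5%) of 7957 genes. The largest list differences beside f3b were lman1, which with mcfd2 carries factor VIII out of the endoplasmic reticulum, at 1.55 ± 0.24, and selp, the P-selectin gene, at -1.38 ± 0.24, followed by mcfd2 at 0.84 ± 0.20, anxa2a at -0.59 ± 0.11 and pros1 at 0.55 ± 0.16. Between the groups 0 list genes were called with edgeR in any type or in whole libraries. An unadjusted p under 0.05 was reached by 3 of 23 tested in endocardium, 1 of 21 in macrophages and 0 of 12 in neutrophils. Over all genes it was 2.61%, 2.39% and 3.26%. In erythrocytes, atrial and ventricular cardiomyocytes it was 3 of 24, 5 of 19 and 2 of 19, beside 5.15%, 9.19% and 4.51%. In epicardium and fibroblasts it was 3 of 18 and 2 of 16, beside 8.02% and 11.4%. In smooth muscle and whole libraries it was 4 of 16 and 6 of 37, beside 4.75% and 4.43%. DESeq2 called 1 of 8 list genes with an adjusted p in fibroblasts and 1 of 17 in smooth muscle. It called 0 in the other 7 types. The share of all genes called by DESeq2 is not given here, so these counts say nothing particular about the list.

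Genes with a similar pattern were sought by Pearson correlation of log2(CPM + 1) over the 36 sums of 9 types in 4 libraries, among 1685 genes with a mean of at least 20 CPM. These sums share libraries and depth, so the coefficients are descriptions. The closest to f8 were aqp8a.1 (r = 0.92), spock3 (r = 0.90) and sele (r = 0.83), and the closest to vwf were spock3 (r = 0.89), the locus ENSDARG00000058940 (r = 0.87) and ramp2 (r = 0.86). Of these, spock3 and that locus, which has a clone-based symbol, are endocardial markers of the gate and ramp2 is a pan-endothelial one. For f3b they were fosl1a (r = 0.85), her9 (r = 0.84) and ier2a (r = 0.83). The gene fosl1a encodes a subunit of the transcription factor AP-1, and ier2a belongs to the immediate early genes.

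For f3a the closest were tagln (r = 0.85), which is a smooth muscle marker of the gate, cavin1b (r = 0.85) and tns1b (r = 0.85). Those of fgl2a were si:ch211-147m6.2 (r = 0.86), si:ch211-147m6.1 (r = 0.83) and the macrophage marker c1qb (r = 0.83), and those of plat were endouc (r = 0.90), tuba1a (r = 0.89) and the epicardial marker gstm.3 (r = 0.86). The thbd pattern rests on 73 UMIs in these types, and its closest genes reached r = 0.72 at most.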

How the data were processed

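Single cells of dissociated hearts were sequenced as 3' UMI libraries. The authors aligned reads to GRCz11 and made the deposited count tables with Cell Ranger 4.0.0, with raw UMI counts per gene and barcode and labeled and unlabeled RNA together. Here, a barcode was kept where it held 500 UMIs or more from 200 genes or more and its mitochondrial share did not exceed 50%. The 37 mitochondrial genes were then removed.

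Cells received a type from marker lists without the 7 genes. A marker counted where it was 1.5-fold above the library's level and under a Poisson limit of 0.01. A type needed 2 such markers (3 for erythrocytes and surface epithelium) and a summed list under a Poisson limit of 0.0001. For the endothelial types a shared list of endothelial markers counted as well, beside a marker of the type's own list. A cell that met several gates needed a lead of 2 markers, but any lead sufficed between endothelial types. This scoring was set after the data had been seen. Cells meeting several gates without such a lead were left out as possible doublets. The minimum of 20 cells for vessel endothelium was also chosen afterwards. The 7 genes, the pathway list and the marker lists were chosen with earlier results of these data known.

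UMI sums per type and library were tested with edgeR 4.0.16 (R 4.3.3, robust quasi-likelihood test, TMM scaling, genes filtered by filterByExpr at a count of 10) and p-values adjusted by Benjamini-Hochberg over all genes, with a threshold of 0.05, and the scripts were tested on simulated data. Groups were compared as cryoinjured over sham. Standard errors (SE) were derived from the log2 fold change and the F statistic of the edgeR test. The study's supplement speaks of a replicate pair, while the labels give a shared number and no shared day or batch. Deviations of same-numbered libraries correlated at 0.212 to 0.455, except in neutrophils at -0.145, and the fit with the number as a block is given beside the counts it moves. Gated types and pairs with at least 30 cells in every library were fitted. Counting intervals (95%, exact) and limits for a count of 0 (3 UMIs) cover counting error only. Named list genes were the 5 largest differences per comparison past the threshold, except an item that is not reported here, and likeness used the 3 highest correlations among genes with a mean of 20 CPM. Alternatives were DESeq2 1.42.0, other scaling, filters, gates, doublet removal (Scrublet in scanpy 1.11.5), no mitochondrial limit, a replicate block and leaving out each library. Sequences and coordinates were not used here.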

Additional observations from a re-analysis of the deposited data

How the results depend on the processing

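Of 189 recomputed counts of genes called, 116 stayed within 1.5 times the first value and 73 did not, and of 392 recomputed values of the 7 genes and of type shares 353 kept direction and side of the threshold, 16 lost a call, 4 gained one and 19 reversed. The cause of these changes was not tested. Depth limits thbd and plat, the vessel endothelium with 22 cells in its smallest library, and thrombocytes with 7, for which no pair could be fitted. With 2 libraries per group, a single library decided most directions between the groups.

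Leaving out 1 library gave 0 to 53 called genes in endocardium, 5 to 210 in macrophages, 0 to 206 in neutrophils, 0 to 262 in erythrocytes, 0 to 6 in atrial and 2 to 30 in ventricular cardiomyocytes, 1 to 167 in epicardium, 1 to 216 in fibroblasts, 7 to 44 in smooth muscle and 0 to 48 in whole libraries. It gave 191 to 526 for endocardium over vessel endothelium, 183 to 555 for macrophages over neutrophils, 99 to 239 for epicardium over fibroblasts and 0 to 271 for the interaction. Where it left 1 library in a group, that library was assumed to vary like the others.

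Called genes by DESeq2 were 3 in endocardium, 1 in macrophages, 11 in erythrocytes, 10 in atrial and 17 in ventricular cardiomyocytes, 6 in epicardium, 15 in fibroblasts and 10 in smooth muscle. With no filter on low counts they were 16, 17, 6, 55, 48, 35, 16, 39, 17 and 6 in endocardium, macrophages, neutrophils, erythrocytes, atrial and ventricular cardiomyocytes, epicardium, fibroblasts, smooth muscle and whole libraries, 2324 for endocardium over macrophages and 509 for macrophages over neutrophils. With 1 more marker in the gate, epicardium over fibroblasts gave 57.

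With the replicate number as a block 28 genes were called in endocardium, 16 in macrophages, 3 in neutrophils, 36 in erythrocytes, 133 in atrial and 27 in ventricular cardiomyocytes, 28 in epicardium, 96 in fibroblasts, 0 in smooth muscle and 9 in whole libraries. A crossed block, chosen after seeing the data, gave 10 in neutrophils. No call of the 7 genes changed with the block, and the smooth muscle share of cells turned to 0.12.

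Values that reversed without sham library 2 were f3b in endocardium (0.43), f3a in smooth muscle (0.79), fgl2a in macrophages (0.20), f3a and fgl2a in whole libraries (1.21 and 0.68) and the share of smooth muscle (1.25). Without cryoinjured library 2 these were f8 in endocardium (-0.39), in whole libraries (-0.42) and in the interaction (-0.61), and the shares of smooth muscle (0.42) and macrophages (-0.26). Without cryoinjured library 1 these were thbd in whole libraries (0.15), vwf in the interaction (1.48) and the share of endocardium (0.048), and without sham library 1 the share of macrophages (-0.091). At their other end, these leave-one-out values reached 2.22 for f8 and -1.09 for f3b in endocardium, -1.998 for f3a in smooth muscle, -0.88 for fgl2a in macrophages, 1.34 for f8, -1.34 for thbd, -1.15 for f3a and -1.08 for fgl2a in whole libraries, 0.74 for f8 and -7.18 for vwf in the interaction, 1.52 for the share of macrophages, -0.35 for that of endocardium and -0.82 for that of smooth muscle. Library-size scaling turned f3a for endocardium over vessel endothelium to -0.23, 1 more marker in the gate turned f8 in the interaction to -0.043, and no mitochondrial limit turned the share of smooth muscle to 0.031.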

Other observations

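Within endocardium f8 and vwf were detected together with no common direction across the 4 libraries. Of the cells with a UMI of f8 after thinning, 19.0% and 18.3% also had one of vwf in the cryoinjured libraries, against 4 of 100 cells and 13.8% in the sham libraries. Of the cells without f8 the shares were 12.6% and 22.8% in the cryoinjured libraries, against 12.3% and 11.9% in the sham libraries.

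Other clotting genes were counted in the thrombocyte gate. The cofactor gene f5 gave 9 UMIs over the 4 libraries, f13a1b gave 7 and f10 gave 3. The inhibitor gene tfpia gave 8 and the receptor gene f2rl2 gave 4. These are a selection of the list genes with UMIs in this gate. No test was made on so few cells.

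A large part of the transcripts lay outside the gates. Of all f8 UMIs 35.2% and 29.9% lay in cells without a type in the cryoinjured libraries, against 46.0% and 32.2% in the sham libraries. The endocardial gate held 35.9% and 53.2% against 32.2% and 43.2%. For vwf the ungated share was 42.8% and 37.0% against 41.7% and 39.3%, so the gated levels describe part of the transcripts only.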
